A study of Arabidopsis thaliana with 4 samples.

Results

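Roots of 2 Arabidopsis thaliana genotypes, both kept in aluminium, are compared here across all measured loci: the line labelled arf10/arf16 double mutant and wild type. The pair was chosen by treatment and genotype and not by any measured value, and it holds 2 of the 4 libraries of the study. Per the labels, both lines have the Col-0 background. Seedlings grew for 6 days in 2% modified MGRL nutrient solution at pH 5.0, and about 500 of each line were then placed in the same solution with 10 µM AlCl3. Roots were taken after 24 h for total RNA. The other pair, the line labelled arf10/arf16 and wild type with 0 µM AlCl3, shares no library with the first and is used for values set side by side. Each group is 1 library of pooled roots, so no difference between genotypes was tested. The labels give neither the alleles nor the number of independent lines behind the double mutant, and the title of the series names a differential response of this line to Al as its subject.

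The library labelled arf10/arf16 with Al held 2080348 reads and wild type with Al held 2280894. Without Al the library labelled arf10/arf16 held 2188782 reads and wild type 2232186. Of 22284 loci listed, 21112 had a read in either library with Al, and 14739 passed a filter on low counts. Levels are CPM, the reads of a locus per 1000000 reads of the library, after scaling by the trimmed mean of M values (TMM). A locus is called higher or lower where the log2 ratio of CPM, library labelled arf10/arf16 over wild type, is 1 or more, or -1 or less, and the exact 95% interval of the ratio leaves out 1. Intervals in brackets are of that kind, and they cover counting error only.

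Auxin response factors bind DNA and switch auxin-responsive genes on or off. ARF10, ARF16 and ARF17 belong to a class described as repressors, and in Arabidopsis the microRNA miR160 guides the cleavage of their transcripts. ARF10 and ARF16 are known for their part in the growth of the root cap, and auxin as a whole shapes lateral roots and root hairs. Aluminium ions, which become soluble in acid, bind the cell wall and stop root elongation, and Arabidopsis roots answer them by releasing malate and citrate.

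The targeted genes come first because they check the labels. ARF10 had 2640 reads in the library labelled arf10/arf16 and 142 in wild type with Al, against 3820 in the labelled library and 110 in wild type without Al. It was 21.9-fold higher with Al (18.5 to 26.1), and it took 0.127% of all reads in the library labelled arf10/arf16 and 0.0062% in wild type. In neither pair was ARF10 lower under the mutant label. The alleles are not given, so its reads cannot settle whether the label is right. Every direction below rests on the label alone. ARF16 had 41 reads in the library labelled arf10/arf16 and 75 in wild type with Al, which is 1.56-fold lower (1.05 to 2.33) and short of the rule. Without Al it had 71 reads in the arf10/arf16-labelled library and 159 in wild type (2.01-fold lower, 1.51 to 2.70, log2 ratio -0.99), again short of the rule. A locus sum cannot tell which stretch of ARF10 the reads came from.

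The site paired by miR160 is shown because ARF10 and ARF16, the genes the line is named for, share it. The sequences are written 5′ to 3′ from the RefSeq annotation of TAIR10.1, and they describe the reference, not the alleles of the sampled line. Capitals in miR160a mark the seed, bases 2 to 8. Capitals in the sites mark bases that pair with miR160a, with G:U counted as a mismatch. The sites lie in 1 coding exon each, at chr2:12115741-12115761 on the plus strand for ARF10, chr4:14704141-14704161 on the minus strand for ARF16 and chr1:29274189-29274209 on the plus strand for ARF17.
miR160a: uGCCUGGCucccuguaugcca
ARF10 site: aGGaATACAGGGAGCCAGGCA
ARF16 site: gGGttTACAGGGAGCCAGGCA
ARF17 site: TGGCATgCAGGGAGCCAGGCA
The stretch opposite the seed was the same in all 3 sites, and the mismatches numbered 2 in ARF10, 3 in ARF16 and 1 in ARF17.

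With Al, 607 loci were higher in the library labelled arf10/arf16, which is 4.12% of the 14739 loci kept, and 261 were lower, which is 1.77%. Most loci were close to equal, with quartiles of the log2 ratio at -0.25 and 0.34 and a median of 0.04. The split between directions depends on the scaling: 69.9% of called loci were higher with TMM, against 55.7% with total counts (457 higher and 364 lower), where the median log2 ratio moved by -0.10. Few differences were large. The counting interval lay wholly beyond 2-fold for 122 higher and 13 lower loci, beyond 3-fold for 26 and 2, and beyond 4-fold for 11 and 1. By the larger of the 2 read counts, 6.19% of 3570 loci under 20 reads were called, 7.31% of 6102 between 20 and 100, 3.85% of 4750 from 100 up to 1000, and 5.68% of 317 above that, with no steady order by depth.

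**Figure D1:**
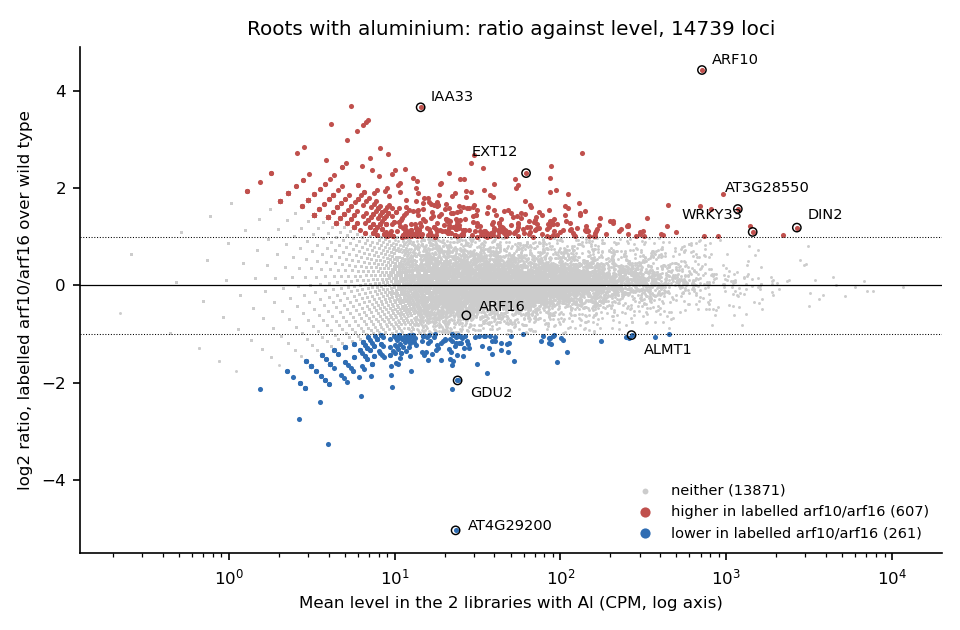
Each point is a locus, with the mean CPM of both libraries with Al on a log axis and the log2 ratio of the library labelled arf10/arf16 over wild type on the other axis. Red points are the 607 higher loci and blue points the 261 lower loci, dotted lines stand at log2 ratios of 1 and -1, and ARF10 at 4.43 and AT4G29200 at -5.04 lie farthest from 0.

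After ARF10, the locus with the strongest lower bound was IAA33, an unusual member of the Aux/IAA family, with 53 reads in the library labelled arf10/arf16 and 3 in wild type (20.8-fold, 6.74 to 104). IAA33 was also higher without Al, with 54 reads in the labelled library and 6 in wild type. Next came AT3G50140, a membrane protein of the DUF247 family, with 21 reads in the library labelled arf10/arf16 and 0 in wild type, at least 8.23-fold higher against a floor of 3 reads. AT5G64120 and AT5G64110, neighbouring genes of class III peroxidases, enzymes that cross-link or loosen the wall with hydrogen peroxide, stood beside it. AT5G64120 had 455 reads in the library labelled arf10/arf16 and 79 in wild type (6.77-fold, 5.32 to 8.72), and AT5G64110 had 102 in the labelled library and 17 in wild type (7.06-fold, 4.2 to 12.6). Both were also higher without Al. AT5G62340, an inhibitor of the invertase and pectin methylesterase type, had 290 reads in the library labelled arf10/arf16 and 60 in wild type (5.69-fold, 4.29 to 7.64). Neither AT3G50140 nor AT5G62340 was past the rule without Al.

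The others of the 12 with the strongest bounds were AT1G29090, a cysteine protease, AT1G50050, a secreted CAP protein, the cytochrome P450 genes CYP709B2 and CYP705A5, AT1G54870 and the extensin-like AT4G08400. Apart from AT4G08400 these had 16 to 26 reads in the library labelled arf10/arf16 and 0 or 1 in wild type. AT1G29090, AT1G50050 and CYP705A5 were also higher without Al, while CYP709B2 and AT4G08400 were not past the rule there. AT1G54870, of the NAD(P)-binding fold, had 22 reads in the arf10/arf16-labelled library and 1 in wild type with Al and 0 in both libraries without Al.

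Root hairs are tubes grown by single epidermal cells, and they lengthen by adding soft wall at the tip. Of 32 root hair growth effectors kept (of 33 listed), 13 were higher and none lower, with a median log2 ratio of 0.87 (all loci had a median of 0.04), and 31 of the 32 lay above 0. Without Al 1 of the 32 was higher, none lower, and the median was 0.29. Over all 32 kept members the reads summed to 3146.1 CPM in the library labelled arf10/arf16 and 1964.8 CPM in wild type with Al, against 5898.9 CPM in the labelled library and 4018.9 CPM in wild type without Al, so that the summed level was higher in the labelled library in both pairs. The 13 members, picked by their own ratio with Al, gave 745.6 CPM in the library labelled arf10/arf16 and 242.9 CPM in wild type with Al, against 2756.5 CPM in the labelled library and 2136.1 CPM in wild type without Al. By either sum both libraries with Al were below both libraries without Al, and wild type with Al was the lowest of the 4.

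Named members cover the wall and the tip. The extensin gene EXT12 had 201 reads in the library labelled arf10/arf16 and 46 in wild type with Al (5.14-fold, 3.71 to 7.24), and 875 in the labelled library and 696 in wild type without Al. PRP1, a proline-rich wall protein, had 84 reads in the arf10/arf16-labelled library and 20 in wild type with Al (4.94-fold, 3.01 to 8.50), and 188 in the labelled library and 132 in wild type without. PRP3, a wall protein of the same kind, had 249 reads in the arf10/arf16-labelled library and 98 in wild type with Al (2.99-fold, 2.36 to 3.82), and 954 in the labelled library and 958 in wild type without. In each of these wall genes both libraries without Al were above both with Al, by the least in PRP1, and wild type with Al was the lowest.

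The arabinogalactan protein gene AGP3 had 84 reads in the library labelled arf10/arf16 and 24 in wild type with Al (4.12-fold, 2.59 to 6.78). RHS19, a peroxidase gene of root hairs, had 202 in the arf10/arf16-labelled library and 88 in wild type (2.70-fold, 2.09 to 3.51). RHD2, the NADPH oxidase that makes the reactive oxygen of the hair tip, had 163 in the arf10/arf16-labelled library and 72 in wild type (2.66-fold, 2.01 to 3.56). LRX1, a leucine-rich repeat extensin, had 230 in the arf10/arf16-labelled library and 112 in wild type (2.42-fold, 1.92 to 3.06). The receptor-like kinase gene PERK13 and the kinase gene IRE, which act in hair elongation, were both higher. PERK13 had 55 reads in the arf10/arf16-labelled library and 19 in wild type, and IRE had 17 in the labelled library and 5 in wild type. Among members that did not pass, FERONIA (FER), the receptor kinase of hair growth, had 1495 reads in the arf10/arf16-labelled library and 1303 in wild type with Al (log2 ratio 0.43), and CSLD3, a synthase of the tip wall, had 582 in the labelled library and 428 in wild type (0.68). SHV3 had 1549 reads in the arf10/arf16-labelled library and 1167 in wild type with Al, and it was the member past the rule without Al, with 1666 in the labelled library and 555 in wild type.

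Of 14 root hair regulators kept (of 18 listed), 2 were higher and none lower (median 0.60, or 0.35 over the 13 with at least 10 reads in either library). RHD6, a basic helix-loop-helix factor that starts hair formation, had 50 reads in the library labelled arf10/arf16 and 17 in wild type with Al (3.46-fold, 1.96 to 6.4), against 86 in the labelled library and 84 in wild type without Al. RSL2, a factor of the same family that drives hair growth, had 18 reads in the arf10/arf16-labelled library and 5 in wild type with Al (4.23-fold, 1.52 to 14.6), against 120 in the labelled library and 113 in wild type without. The patterning factor JKD had 161 reads in the arf10/arf16-labelled library and 162 in wild type, and LRL1 294 in the labelled library and 391 in wild type. With total counts in place of TMM, 12 effectors and 2 regulators were higher.

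Markers of cell types give the setting for these values. The 4 hair cell markers SHV2, PRP3, EXPA18 and EXPA7, all of them also effectors, were higher with Al (3 of 4 with total counts) and summed to 181.9 CPM in the library labelled arf10/arf16 and 60.6 in wild type. Endodermis markers summed to 141.6 CPM in the arf10/arf16-labelled library and 99.3 CPM in wild type (0 of 3 past the rule), and root cap markers to 16.0 CPM in the labelled library and 7.0 CPM in wild type (1 of 2 kept, NAC070, was higher). Xylem markers summed to 84.7 CPM in the arf10/arf16-labelled library and 101.5 CPM in wild type (0 of 3), and phloem markers to 57.9 CPM in the labelled library and 84.3 CPM in wild type (0 of 1 kept). Non-hair epidermis markers summed to 8.8 CPM in the arf10/arf16-labelled library and 3.5 CPM in wild type (0 of 1 kept). SMB of the root cap and APL of the phloem had 0 reads in both libraries, so the root cap and phloem lists rest on few genes. In bulk root RNA, fewer cells of a type and less RNA per cell cannot be told apart, and the part of cell numbers in the root hair values was not tested. Markers of green tissue were near 0: CAB2, LHCB2.1, LHCA1 and LHCA3 had 0 reads in both libraries, and the 6 shoot markers summed to 24.8 CPM in the arf10/arf16-labelled library and 23.7 CPM in wild type.

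Promoter windows of the root hair genes are shown because the members stood together. A window runs 250 bases before to 50 after the annotated gene start in TAIR10.1, and both strands were searched. The core of the root hair element, TG and CACG with 4 or 5 bases between them, was found in 40.6% of the 32 effector windows and 47.2% of the 36 extensin windows, against 11.4% of all 14687 windows read. Effectors such as RHS19 may be known as root hair genes partly through this element. The share among effectors may thus be built into the list, and this was not tested. The core stood in 16.0% of the 605 windows of higher loci and 8.08% of the 260 of lower loci. Of the 13 effectors that were higher, 10 had it in the 250 bases before the start. The 3 with the most matches there are printed, 250 bases each, with the core in capitals: SHV2 at chr5:19974531-19974780 on the minus strand, RHS13 at chr4:993040-993289 on the minus strand and LRX1 at chr1:4069742-4069991 on the plus strand.
SHV2: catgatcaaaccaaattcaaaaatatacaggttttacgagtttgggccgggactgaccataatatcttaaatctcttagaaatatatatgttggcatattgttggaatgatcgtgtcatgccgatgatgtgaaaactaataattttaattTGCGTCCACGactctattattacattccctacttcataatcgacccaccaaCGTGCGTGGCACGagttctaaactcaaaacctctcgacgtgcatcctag
RHS13: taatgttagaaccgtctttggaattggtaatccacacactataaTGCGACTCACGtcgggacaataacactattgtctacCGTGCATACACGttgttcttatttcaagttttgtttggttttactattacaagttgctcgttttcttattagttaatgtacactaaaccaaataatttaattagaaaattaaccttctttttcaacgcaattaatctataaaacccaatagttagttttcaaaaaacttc
LRX1: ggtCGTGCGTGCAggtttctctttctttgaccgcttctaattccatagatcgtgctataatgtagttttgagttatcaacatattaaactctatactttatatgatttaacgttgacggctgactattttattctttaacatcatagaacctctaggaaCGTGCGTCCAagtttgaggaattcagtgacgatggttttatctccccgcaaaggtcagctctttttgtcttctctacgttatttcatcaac
SHV2 and RHS13 hold 3 matches each, of which a pair overlaps on opposite strands, and LRX1 holds 2. With Al, SHV2, a membrane-anchored protein of the hair wall, had 61 reads in the library labelled arf10/arf16 and 21 in wild type (3.42-fold, 2.05 to 5.91), and RHS13 had 55 in the labelled library and 29 in wild type (2.23-fold, 1.40 to 3.63). A match is a description of the letters and not of a bound site.

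**Figure D2:**
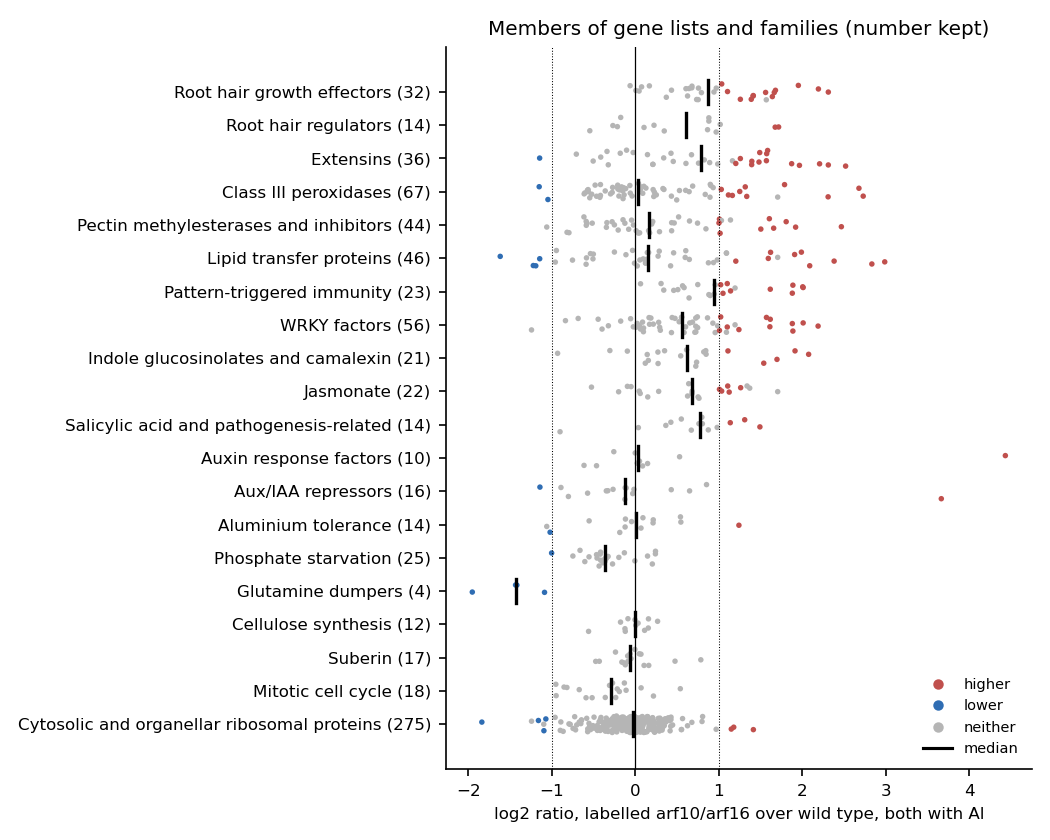
Each point is a kept member of a gene list or family, placed by its log2 ratio of the library labelled arf10/arf16 over wild type, both with Al. Red points were higher, blue points lower and grey points neither, black bars are medians and dotted lines stand at 1 and -1. Root hair effectors, extensins and immunity genes reach to the right, the 4 glutamine dumpers lie at or below -1.09, and 275 ribosomal proteins centre on -0.03.

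Extensins, the hydroxyproline-rich rods that stiffen the cell wall, split by member. The family was drawn by description, so it also takes in proteins annotated as Pollen Ole e 1 allergen and extensin family. Of 36 kept (of 45 matched), 14 were higher and 1 lower, with a median of 0.79, and 14 were also higher with total counts. The lower member, SAH7, and the higher members AT2G47540 and AT5G10130 carry the Pollen Ole e 1 annotation. The members with the most reads did not differ by the rule: EXT3 had 22253 reads in the library labelled arf10/arf16 and 26669 in wild type, and AT2G43150 had 14300 in the labelled library and 18103 in wild type. These were also the 2 nuclear loci with the most reads in each library with Al. All 36 kept members summed to 30422.9 CPM in the library labelled arf10/arf16 and 25794.7 CPM in wild type with Al, against 76130.9 CPM in the labelled library and 71107.2 CPM in wild type without Al. The 14 higher members, picked by their own ratio with Al, gave 5952.7 CPM in the library labelled arf10/arf16 and 1903.3 CPM in wild type with Al, against 21192 CPM in the labelled library and 18849.9 CPM in wild type without Al.

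AT1G23720 had 2891 reads in the library labelled arf10/arf16 and 928 in wild type with Al (3.66-fold, 3.4 to 3.95), and 12698 in the labelled library and 12465 in wild type without. AT3G28550 had 3401 reads in the arf10/arf16-labelled library and 1344 in wild type with Al (2.98-fold, 2.8 to 3.2), and 12712 in the labelled library and 13521 in wild type without. EXT13 had 277 reads in the arf10/arf16-labelled library and 69 in wild type with Al (4.72-fold, 3.62 to 6.24), and 1001 in the labelled library and 1005 in wild type without. In each of these the libraries without Al were the highest and close to one another. AT4G08400, with 96 reads in the arf10/arf16-labelled library and 18 in wild type with Al (6.27-fold, 3.77 to 11), had 420 in the labelled library and 376 in wild type without. Extensin genes are built of near-identical repeats, so how reads were divided among them is uncertain, and members cannot be taken as separate measurements. The hydroxyproline-rich HRGP1 showed the same order, with 1299 reads in the arf10/arf16-labelled library and 486 in wild type with Al (3.14-fold, 2.83 to 3.5) and 5036 in the labelled library and 4667 in wild type without.

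**Figure D3:**
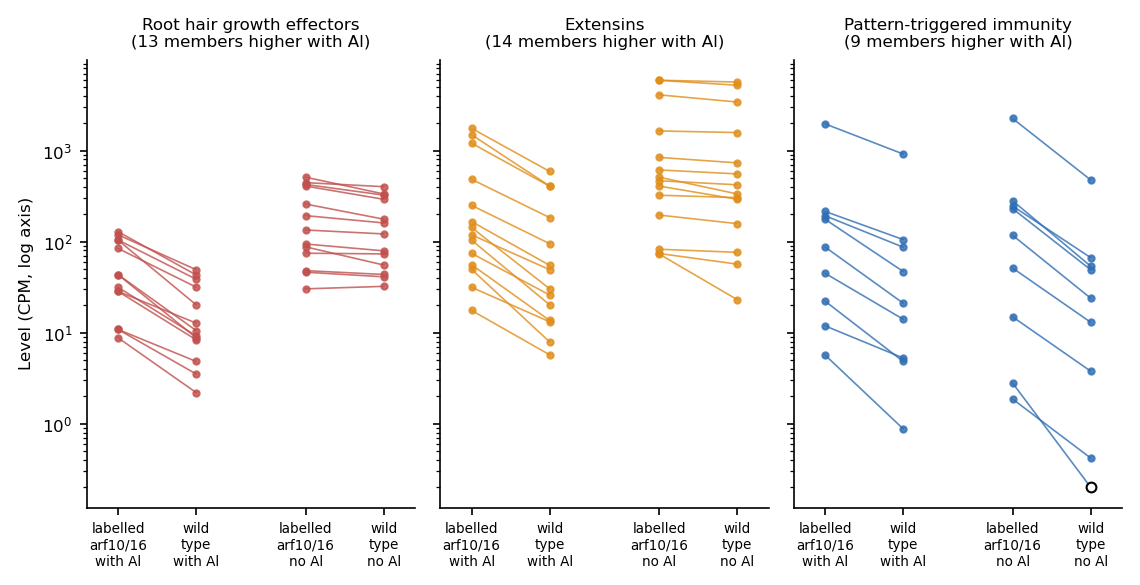
Lines join the CPM (log axis) of the library labelled arf10/arf16 and wild type within each treatment, for the members of 3 groups that were higher with Al. For 13 root hair effectors and 13 of 14 extensins the log2 ratio without Al lay between -0.09 and 0.66, and for the 9 immunity genes it was 1.06 or more. EXT12 and LRX1 appear in both of the first panels, and the open circle marks 0 reads, for WRKY18 in wild type without Al.

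Other wall families held a few higher members each. Among 67 class III peroxidases and related enzymes kept, 10 were higher and 2 lower with a median of 0.04, and 4 of the 10 were also higher without Al. Pectin methylesterases and their inhibitors had 9 higher and none lower of 44 (median 0.16), and 6 higher with total counts. AT3G10720 had 194 reads in the library labelled arf10/arf16 and 71 in wild type with Al, against 921 in the labelled library and 1072 in wild type without, and PME2 had 107 in the labelled library and 40 in wild type with Al, against 240 in the labelled library and 240 in wild type without. Of 38 arabinogalactan proteins 4 were higher: AGP3, FLA13 with 22 reads in the arf10/arf16-labelled library and 7 in wild type, FLA6 with 11 in the labelled library and 0 in wild type, at least 4.31-fold higher, and AGP30, a protein of the root wall, with 112 in the labelled library and 23 in wild type (5.73-fold, 3.63 to 9.40).

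Among 46 lipid transfer proteins, small carriers of the cell surface, 9 were higher and 4 lower (median 0.15), or 8 and 5 with total counts. AT5G46900 had 29 reads in the library labelled arf10/arf16 and 3 in wild type with Al (11.4-fold, 3.52 to 58.3), and AT4G12520 had 125 in the labelled library and 33 in wild type (4.46-fold, 3.02 to 6.75). Without Al AT5G46900 had 135 in the arf10/arf16-labelled library and 280 in wild type, and AT4G12520 had 497 in the labelled library and 635 in wild type. None of 12 cellulose synthesis genes was past the rule (median 0.00, total counts -0.10), with CESA1 at 1409 reads in the library labelled arf10/arf16 and 1489 in wild type. None of 17 suberin genes was past the rule (median -0.06), with the fatty acid hydroxylase gene CYP86A1 at 1342 reads in the arf10/arf16-labelled library and 2196 in wild type. Of 16 expansins, which loosen the wall, EXPA18 and EXPA7 of root hairs were higher (1 of the pair with total counts) and EXPB3 was lower with 6 reads in the arf10/arf16-labelled library and 26 in wild type. XTH31, an enzyme that cuts or joins xyloglucan, was lower with 92 reads in the library labelled arf10/arf16 and 328 in wild type (3.03-fold lower, 2.4 to 3.86), and it was lower without Al too, with 221 in the labelled library and 551 in wild type.

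Immunity genes differed in both pairs. Of 23 genes of pattern-triggered immunity, the defence set off by microbial patterns at the cell surface, 9 were higher and none lower with Al (median 0.94), and all 23 lay above 0. Without Al 7.96% of the loci kept were higher and 2.6% lower, and of these 23 genes 18 were higher (median 1.87). With total counts 6 were higher with Al. All 23 summed to 5692.8 CPM in the library labelled arf10/arf16 and 3071.8 CPM in wild type with Al, against 6289.8 CPM in the labelled library and 1521.3 CPM in wild type without Al. The 9 members, picked by their own ratio with Al, gave 2724 CPM in the library labelled arf10/arf16 and 1203.2 CPM in wild type with Al, against 3202 CPM in the labelled library and 686.4 CPM in wild type without Al.

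PROPEP3, the precursor of a danger peptide, had 169 reads in the library labelled arf10/arf16 and 48 in wild type with Al (4.14-fold, 2.99 to 5.83), and 528 in the labelled library and 159 in wild type without. WRKY33, a factor that turns on camalexin synthesis, had 3809 reads in the arf10/arf16-labelled library and 2089 in wild type with Al (2.14-fold, 2.03 to 2.26), and 4834 in the labelled library and 1135 in wild type without. Its log2 ratio with Al was 1.1, and just short of 1 with total counts (0.9987). WRKY40, which acts with WRKY18 in tuning defence, had 341 in the arf10/arf16-labelled library and 107 in wild type with Al (3.75-fold, 3.01 to 4.70), and 604 in the labelled library and 128 in wild type without. For WRKY33 the pair without Al was farther apart than the pair with Al. The kinase gene MPK3 and the oxidase gene RBOHD, both central to the early response, did not pass with Al. MPK3 had 1778 reads in the arf10/arf16-labelled library and 1087 in wild type with Al (log2 ratio 0.94) and 2078 in the labelled library and 585 in wild type without, and RBOHD had 1222 in the labelled library and 920 in wild type with Al (log2 ratio 0.64), against 1631 in the labelled library and 371 in wild type without.

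WRKY factors as a family had 11 higher and none lower of 56 kept (median 0.55), and 27 higher without Al (median 0.85). Of the 11, 10 were higher in both pairs. The exception was WRKY55, with 27 reads in the library labelled arf10/arf16 and 9 in wild type with Al, against 0 in the labelled library and 1 in wild type without. WRKY62 had 169 reads in the arf10/arf16-labelled library and 42 in wild type with Al (4.73-fold, 3.36 to 6.80), and 142 in the labelled library and 15 in wild type without. With total counts 8 of the family were higher and 1 lower. Resistance proteins of the nucleotide-binding type, the intracellular receptors of pathogen effectors, had 9 higher and none lower of 102 (median 0.41), against 37 higher and 1 lower without Al. Proteins with a cysteine/histidine-rich C1 domain had 16 higher and none lower of 96 (median 0.49), and 8 of the 16 were higher in both pairs. With total counts 10 C1 domain proteins were higher.

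W-boxes, the sites that WRKY factors bind, were searched as TTGACC and TTGACT. One or the other was found in 65.2% of the 23 immunity windows, in 44.3% of the windows of higher loci, in 25.4% of those of lower loci and in 34.4% of all. Of the 9 immunity genes that were higher with Al, 6 had a match in the 250 bases before the start. The 2 with the most matches are printed with W-boxes in capitals on either strand: PROPEP3 at chr5:25939312-25939561 on the plus strand and WRKY30 at chr5:8154711-8154960 on the minus strand.
PROPEP3: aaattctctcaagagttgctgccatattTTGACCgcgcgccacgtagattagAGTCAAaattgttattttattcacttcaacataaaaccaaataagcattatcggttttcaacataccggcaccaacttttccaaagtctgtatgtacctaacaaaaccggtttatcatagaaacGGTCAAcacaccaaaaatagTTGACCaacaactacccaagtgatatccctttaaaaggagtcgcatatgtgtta
WRKY30: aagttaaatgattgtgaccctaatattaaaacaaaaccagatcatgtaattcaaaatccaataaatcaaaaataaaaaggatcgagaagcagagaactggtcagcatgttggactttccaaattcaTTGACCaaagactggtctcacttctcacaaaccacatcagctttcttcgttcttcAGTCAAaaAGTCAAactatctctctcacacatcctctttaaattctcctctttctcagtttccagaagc
PROPEP3 holds 4 matches and WRKY30 holds 3. WRKY30 had 43 reads in the library labelled arf10/arf16 and 11 in wild type with Al (4.60-fold, 2.33 to 9.89), and 252 in the labelled library and 57 in wild type without. No window of the 23 immunity genes held the root hair core.

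**Figure D4:**
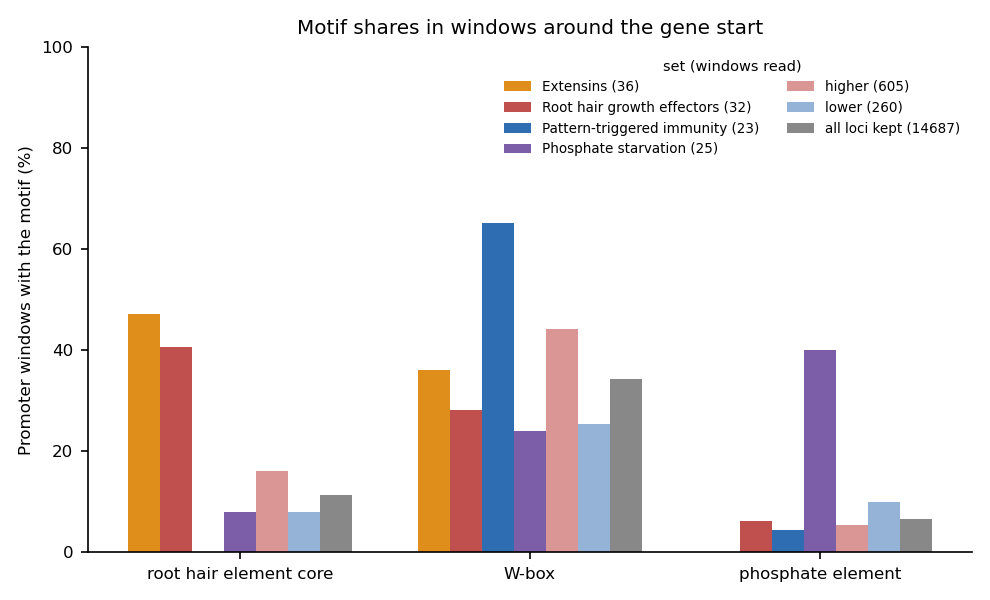
Bars give the percentage of promoter windows of 300 bases that hold each motif, by set of loci, with the number of windows read in the legend. The root hair core is most frequent in extensins (47.2%) and root hair effectors (40.6%), the W-box in immunity genes (65.2%) and the phosphate element in phosphate starvation genes (10 of 25), and the grey bars give the share over all loci.

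Of 21 genes for indole glucosinolates and camalexin, the tryptophan-derived defence compounds of Arabidopsis, 5 were higher and none lower with Al (median 0.61), and all 5 were among the 14 that were higher without Al. With total counts 5 were higher and 1 lower. The member lower with total counts was PAD3, the last enzyme of camalexin synthesis, with 66 reads in the arf10/arf16-labelled library and 150 in wild type with Al (log2 ratio -0.93, or -1.03 with total counts). IGMT1, a methyltransferase of indole glucosinolates, had 174 reads in the library labelled arf10/arf16 and 47 in wild type with Al (4.35-fold, 3.14 to 6.15), and 605 in the labelled library and 25 in wild type without. CYP81F2, the enzyme that hydroxylates them, had 264 in the arf10/arf16-labelled library and 81 in wild type with Al (3.83-fold, 2.98 to 4.98), and 694 in the labelled library and 50 in wild type without. The transporter gene PEN3 had 7635 reads in the arf10/arf16-labelled library and 5091 in wild type with Al (log2 ratio 0.82, not past the rule), and 14736 in the labelled library and 2904 in wild type without. In IGMT1, CYP81F2 and PEN3 the ratio without Al was the larger, and the wild-type level was higher with Al than without it.

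Jasmonate genes had 5 higher and none lower of 22 with Al (median 0.68), and 17 higher without Al (median 1.82). The repressor gene JAZ6 had 198 reads in the library labelled arf10/arf16 and 96 in wild type with Al (2.43-fold, 1.89 to 3.13), and 436 in the labelled library and 59 in wild type without. MYC2, the factor that JAZ proteins hold back, had 820 in the arf10/arf16-labelled library and 479 in wild type with Al (2.01-fold, 1.8 to 2.26), and 1109 in the labelled library and 441 in wild type without. With total counts 3 of the 22 were higher with Al, and MYC2 at a log2 ratio of 0.91 was not among them. Salicylic acid genes had 3 higher of 14 (median 0.78): SARD1, a factor that turns on salicylic acid synthesis, with 376 reads in the library labelled arf10/arf16 and 156 in wild type, CBP60G with 75 in the labelled library and 39 in wild type, and ALD1 with 30 in the labelled library and 13 in wild type. All 3 were also higher without Al, where 8 of the 14 were higher and none lower (median 1.12). PBS3, which builds the precursor of salicylic acid, had 1996 reads in the arf10/arf16-labelled library and 1281 in wild type with Al (log2 ratio 0.87), and 23 in the labelled library and 24 in wild type without. Cytokinin had 2 higher of 12, or 1 with total counts (ARR7 with 28 reads in the arf10/arf16-labelled library and 12 in wild type and RR5 with 34 in the labelled library and 18 in wild type), and ethylene had 1 lower of 17 (ACS8 with 7 in the labelled library and 35 in wild type).

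Of 10 auxin response factors kept (of 15 listed) ARF10 alone was past the rule, and MP, the activator of vascular and root patterning, had 592 reads in the library labelled arf10/arf16 and 673 in wild type. Of 16 Aux/IAA repressors, which block auxin response factors until auxin removes them, IAA33 was higher and ATAUX2-11 lower, with 91 reads in the arf10/arf16-labelled library and 239 in wild type (2.23-fold lower, 1.75 to 2.87), and the median was -0.12. Among 17 genes of auxin synthesis and transport 2 were higher and 2 lower, or 1 and 3 with total counts. EIR1, the efflux carrier of the root epidermis and cap, had 170 reads in the arf10/arf16-labelled library and 86 in wild type (2.33-fold, 1.78 to 3.05), and the synthesis gene TAA1 had 21 in the labelled library and 11 in wild type (log2 ratio 1.03, or 0.94 and short of the rule with total counts). The synthesis gene YUC8 had 30 reads in the arf10/arf16-labelled library and 75 in wild type and the carrier gene PIN7 2 in the labelled library and 11 in wild type (4.68-fold lower, 1.02 to 43.4). None of 8 conjugation and lateral root targets passed (median -0.33), with GH3.3, which ties auxin to amino acids, at 80 reads in the arf10/arf16-labelled library and 117 in wild type. The small auxin-up RNAs had 1 higher and 1 lower of 13.

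The known aluminium tolerance genes went both ways, with a median of 0.01 over 14 kept, 1 higher and 1 lower. Of the 14, 7 lay above 0 and 7 below, with log2 ratios from -1.06 to 1.24. WRKY46, a repressor of ALMT1, had 691 reads in the library labelled arf10/arf16 and 343 in wild type (2.37-fold, 2.08 to 2.71). ALMT1, the malate channel, had 342 in the arf10/arf16-labelled library and 819 in wild type (2.04-fold lower, 1.79 to 2.32). Without Al WRKY46 had 143 in the arf10/arf16-labelled library and 50 in wild type, and ALMT1 had 1 read in the labelled library and 8 in wild type. The malate carrier gene TDT had 458 reads in the arf10/arf16-labelled library and 506 in wild type with Al, and GDH1 773 in the labelled library and 785 in wild type. STOP1, the factor above ALMT1, had 3 reads in the arf10/arf16-labelled library and 0 in wild type and was not kept. Among 8 genes of root cap and developmental cell death, NAC070 was higher with 20 reads in the arf10/arf16-labelled library and 9 in wild type, and the protease gene CEP1 had 772 in the labelled library and 777 in wild type. Of 8 stem cell and ground tissue genes PLT2 was higher with 20 reads in the arf10/arf16-labelled library and 6 in wild type, while SCR had 132 in the labelled library and 136 in wild type. None of 18 cell cycle genes was past the rule (median -0.29, and 2 lower with total counts), and their median without Al was -0.64.

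The single locus farthest from 0 was AT4G29200, annotated as a beta-galactosidase relative, with 1 read in the library labelled arf10/arf16 and 105 in wild type (89.3-fold lower, 15.7 to 3559), and 1 in the labelled library and 162 in wild type without Al. The retroelement-like SADHU3-2 had 0 reads in the arf10/arf16-labelled library and 18 in wild type, at least 5.10-fold lower against the floor of 3 reads. AT2G18480, a transporter of the major facilitator type, had 15 reads in the arf10/arf16-labelled library and 84 in wild type (4.76-fold lower, 2.73 to 8.88), and 0 in the labelled library and 1 in wild type without Al. The ferric reductase gene FRO5 had 30 reads in the arf10/arf16-labelled library and 129 in wild type (3.66-fold lower, 2.44 to 5.64), while its neighbour FRO4 was higher with 55 in the labelled library and 29 in wild type (2.23-fold, 1.40 to 3.63). Without Al FRO5 had far more reads, 1590 in the labelled library and 1480 in wild type, and was not past the rule. Reads of FRO4 and FRO5 may be shared, since they are close relatives. CYTC-1, a cytochrome c, had 6 reads in the arf10/arf16-labelled library and 37 in wild type (5.24-fold lower, 2.19 to 15.2), against 23 in the labelled library and 22 in wild type without Al. UMAMIT14, an amino acid exporter of the root, had 51 reads in the arf10/arf16-labelled library and 179 in wild type (2.98-fold lower, 2.18 to 4.16), and 16 in the labelled library and 38 in wild type without Al. AT5G60580, of the RING/U-box type, had 0 reads in the labelled library and 12 in wild type. AT1G11700, annotated as a senescence regulator, had 3 in the labelled library and 25 in wild type (7.08-fold lower, 2.16 to 36.7). AT5G67430, of the acyltransferase type, had 118 in the labelled library and 361 in wild type (2.60-fold lower, 2.11 to 3.23). AT1G11700 and AT5G67430 were lower without Al too.

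Glutamine dumpers, small membrane proteins that promote the export of amino acids, were the one list in which each member kept was lower. GDU2 had 18 reads in the library labelled arf10/arf16 and 88 in wild type with Al (4.16-fold lower, 2.48 to 7.34), and 14 in the labelled library and 45 in wild type without. GDU3 had 105 in the arf10/arf16-labelled library and 265 in wild type with Al (2.15-fold lower, 1.71 to 2.72), and 72 in the labelled library and 180 in wild type without. GDU1 had 17 in the arf10/arf16-labelled library and 57 in wild type, and GDU4 8 in the labelled library and 29 in wild type. Of the 4, 3 were lower without Al as well, and GDU4 with 7 reads in the arf10/arf16-labelled library and 17 in wild type was not. GDU6, which is outside the list and was looked up after its values were seen, had 5 reads in the arf10/arf16-labelled library and 27 in wild type with Al, against 3 in the labelled library and 25 in wild type without.

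Of 25 phosphate starvation genes 1 was lower and none higher, yet 21 of the 25 lay below 0 and the median was -0.37 (total counts -0.47), against -0.36 without Al. IPS1, a non-coding RNA that binds the microRNA of phosphate starvation, had 577 reads in the library labelled arf10/arf16 and 1363 in wild type with Al (2.01-fold lower, 1.82 to 2.22), and 1162 in the labelled library and 2344 in wild type without. IPS1 has 1 transcript model. With the scaling taken from the most-read model of every locus, its log2 ratio was -0.98, short of the rule. SPX1, a phosphate sensor, had 1707 in the arf10/arf16-labelled library and 3057 in wild type with Al (log2 ratio -0.61), and 1221 in the labelled library and 2178 in wild type without. The phosphate element GNATATNC was found in 10 of these 25 windows, in 26 of 260 windows of lower loci and in 6.52% of all. LSU4, a gene of low sulfur, had 18 reads in the arf10/arf16-labelled library and 87 in wild type with Al (4.11-fold lower, 2.45 to 7.26). It was lower without Al too, with 13 in the labelled library and 54 in wild type. SULTR1;1, a root sulfate transporter, had 7 reads in the labelled library and 1 in wild type with Al (8.23-fold, 1.06 to 371), a call lost with total counts. Nitrogen uptake and assimilation had none past the rule among 23 (median 0.05), with the nitrate reductase gene NIA1 at 3183 reads in the arf10/arf16-labelled library and 3652 in wild type.

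Sugar starvation genes were higher in part: 4 of 12 were higher, none lower, and all 12 lay above 0 (median 0.65). DIN2, a beta-glucosidase of darkness and sugar starvation, had 7169 reads in the library labelled arf10/arf16 and 3696 in wild type with Al (2.28-fold, 2.19 to 2.37), and 107 in the labelled library and 34 in wild type without. BXL1, a xylosidase of wall remodelling, had 255 in the arf10/arf16-labelled library and 115 in wild type (2.61-fold, 2.08 to 3.28), DIN10 67 in the labelled library and 30 in wild type, and BCAT-2, of branched-chain amino acid breakdown, 20 in the labelled library and 4 in wild type. Few genes of the machinery of every cell were past the rule. Higher and lower were 3 and 4 of 275 ribosomal proteins (2 and 7 with total counts), 0 and 0 of 98 heat shock proteins and 0 and 0 of 37 histones. Proteasome subunits had 0 and 1 of 36, and tubulins 0 and 1 of 25. Of the 36 proteasome subunits 28 lay below 0 (median -0.29), as did 24 of the 37 histones (median -0.13). The mitochondrial genome took 0.889% of the reads in the library labelled arf10/arf16 (0.877 to 0.902%, exact binomial) and 0.887% in wild type (0.875 to 0.899%). The plastid genome took 0.099% in the arf10/arf16-labelled library and 0.105% in wild type.

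Set against the pair without Al, 78.6% of the 607 higher loci and 75.1% of the 261 lower loci had the same sign there, while 49.4% of all loci kept were positive without Al. The median log2 ratio of the higher loci was 1.38 with Al and 0.66 without, and that of the lower loci was -1.29 and -0.53. The 2 lists overlapped by 230 higher loci, 37.9% of the 607 with Al and 19.6% of the 1173 without, and by 48 lower loci, 18.4% and 12.5% of each list. Over all loci kept, 7.96% were higher and 2.6% lower without Al, and 4.12% and 1.77% with Al. The 370 loci higher with Al only by the rule summed to 17972.8 CPM in the library labelled arf10/arf16 and 6528.8 CPM in wild type with Al, against 49463.6 CPM in the labelled library and 42686.1 CPM in wild type without. By these sums they were highest without Al and lowest in wild type with Al, and the median CPM per locus had the same order. The loci were picked for a higher ratio with Al and no call without Al, so a low wild-type value with Al is in part built in. Extensins, whose members cannot be taken as separate measurements, weigh on the sums. The 14 higher extensins, all but 1 of them among the 370, gave 21192 CPM in the labelled library without Al. The 230 higher in both pairs summed to 32202.8 CPM in the arf10/arf16-labelled library and 13285.7 CPM in wild type with Al, against 39786.1 CPM in the labelled library and 9600.6 CPM in wild type without.

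**Figure D5:**
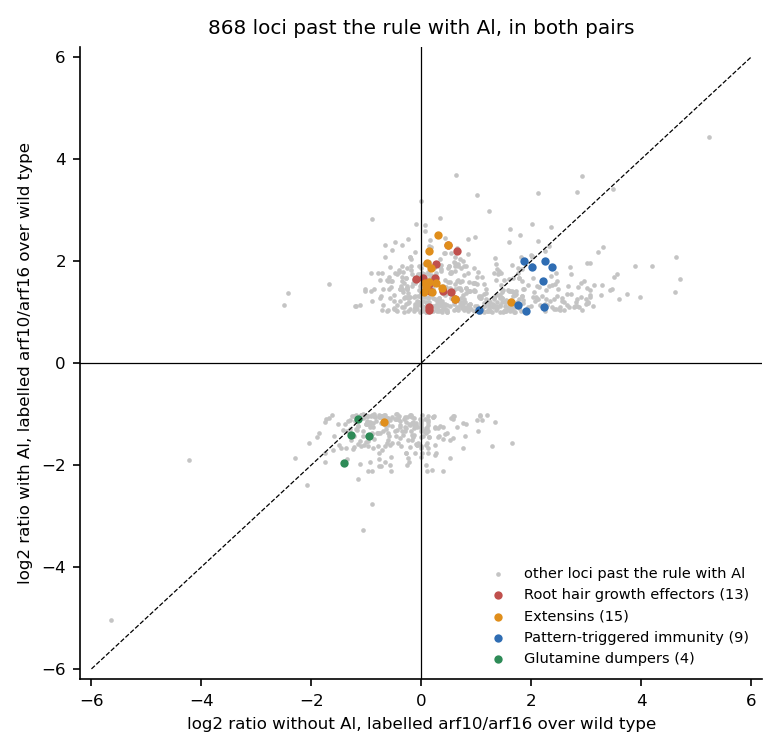
The 868 loci past the rule with Al are placed by their log2 ratio without Al and with Al, each the library labelled arf10/arf16 over wild type, and the dashed line marks equal ratios. Root hair effectors (red) and 14 of 15 extensins (orange) lie within 0.68 of 0 on the axis without Al, immunity genes (blue) lie at 1.06 or more there, and glutamine dumpers (green) are low on both axes.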

How the data were processed

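Both deposited tables for the whole series were used. Raw read counts per transcript model, 1 column for each of 4 libraries, were deposited by the authors, with the word null where no read was counted (15308 cells, read as 0). The RPKM table, deposited by the authors, holds reads per kilobase of model and per library size, since the 2 tables together give whole model lengths within 0.01 bp for 100.0% of values. For the aligner, counter, strand setting, annotation and genome build: not given in the sources used here.

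Counts of 25092 models were summed over 22284 loci, of which 2515 have several models. Loci with several models had lower counts (median 5 reads in the library labelled arf10/arf16 with Al, against 19 for loci with 1 model), and how reads of shared exons were counted is likewise unstated. RefSeq's TAIR10.1 annotation named 99.3% of the loci, and 18 of the names in the gene lists were not found there. edgeR 4.0.16 in R 4.3.3 gave the filter on low counts (filterByExpr over the 4 groups) and the TMM factors. Log2 ratios used a prior count of 2, and folds and exact 95% Clopper-Pearson intervals used the reads themselves. Against 0 reads a floor of 3 reads stood in. With 1 library per group no p-value was computed, and the spread between cultures is unknown. The calling step was tested on simulated data.

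The loci named were ARF10 and ARF16, the 12 loci per direction with the strongest interval bounds, the members of each list past the rule or with the most reads, and the loci with the most reads. The members and gene lists were chosen with earlier results of these data known. Alternatives were total counts, size factors from DESeq2 1.42.0, other filters, prior counts, folds and intervals, the most-read model and the deposited RPKM. An alternative with 1-model loci only was added after the data were seen. Scripts ran in Python 3.11.15 with numpy 2.4.6, pandas 2.3.3, scipy 1.17.1 and matplotlib 3.10.9.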

Additional observations from a re-analysis of the deposited data

Results flagged for a closer look

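Of the 868 loci past the rule with Al, 12 were past it in the opposite direction without Al. These were 7 of the 607 higher and 5 of the 261 lower loci. Over all loci kept, 2.6% were lower and 7.96% higher without Al, so opposite calls were rarer than calls over all loci. The 12 loci are given for a closer look because the 2 pairs differed in opposite directions. None of these differences was tested, since each group has 1 library, and some rest on few reads.

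Higher in the library labelled arf10/arf16 with Al and lower in it without Al were 7 loci. The mannose-binding lectin genes AT1G52060 and AT1G52070, neighbours in the genome whose reads may be shared, were the farthest apart. AT1G52060 had 58 reads in the library labelled arf10/arf16 and 25 in wild type with Al, against 178 in the labelled library and 1069 in wild type without, so that its log2 ratio with Al exceeded that without Al by 3.8. AT1G52070 had 107 reads in the arf10/arf16-labelled library and 56 in wild type with Al, against 188 in the labelled library and 1185 in wild type without, a difference of 3.63. AT5G24570 had 36 in the arf10/arf16-labelled library and 13 in wild type with Al, against 4 in the labelled library and 19 in wild type without (3.23). CYP718, a cytochrome P450, had 12 in the arf10/arf16-labelled library and 4 in wild type with Al, against 18 in the labelled library and 43 in wild type without (2.44). AT5G60530, a late embryogenesis abundant relative, had 93 in the arf10/arf16-labelled library and 49 in wild type with Al, against 625 in the labelled library and 1597 in wild type without (2.32). AT1G36060, an AP2/ERF factor, had 87 in the arf10/arf16-labelled library and 46 in wild type with Al, against 66 in the labelled library and 170 in wild type without (2.31). AT4G15390, an acyltransferase, had 124 in the arf10/arf16-labelled library and 65 in wild type with Al, against 1067 in the labelled library and 2571 in wild type without (2.25). In all 7, wild type had more reads without Al than with it.

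Lower in the library labelled arf10/arf16 with Al and higher in it without Al were 5 loci, with at most 116 reads in any library. AT5G59540, an oxygenase, had 2 reads in the arf10/arf16-labelled library and 11 in wild type with Al, against 7 in the labelled library and 1 in wild type without, a difference of -3.21. AT4G22530, a methyltransferase, had 24 in the arf10/arf16-labelled library and 64 in wild type with Al, against 35 in the labelled library and 17 in wild type without (-2.22). U11/U12-31K, of the minor spliceosome, had 13 in the arf10/arf16-labelled library and 33 in wild type with Al, against 17 in the labelled library and 7 in wild type without (-2.21). AT5G17980 had 47 in the arf10/arf16-labelled library and 116 in wild type with Al, against 19 in the labelled library and 9 in wild type without (-2.10). MYB32, a repressor of phenylpropanoid genes, had 28 in the arf10/arf16-labelled library and 69 in wild type with Al, against 23 in the labelled library and 11 in wild type without (-2.10).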

How the results depend on the processing

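Higher and lower loci numbered 607 and 261, and 457 and 364 with total counts, 607 and 259 with DESeq2 size factors, 658 and 293 with no filter beyond 1 read, 584 and 263 with at least 10 reads, 638 and 285 with a prior count of 0.5, and 640 and 239 with the most-read model of each locus. A fold threshold of 1.5 gave 1222 and 681, a 99% interval 451 and 158, and the deposited RPKM, which carry no TMM factor, 497 and 422. With 1-model loci only, added after the data were seen, they numbered 570 and 240. The share of called loci with the same sign without Al was 77.5%, and 75.4% with total counts. Of 723 named or listed loci, 46 fell short of the rule with total counts, 6 passed it only then and 671 kept their side, and no sign of a called locus turned with total counts or with the most-read model. Group medians moved by under 0.2 in the alternatives run, except that with at least 10 reads the median was 0.35 in place of 0.60 for root hair regulators and 0.93 in place of 0.10 for triterpene clusters, and with a prior count of 0.5 it was 0.73 in place of 0.52 for plant defensins. No paired analysis was possible because each group has 1 library and the labels give no replicate numbers, and for the same reason no library could be left out. Depth limits loci with few reads, whose intervals are wide.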

Other observations

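The called loci were spread over the genome. The share of kept loci that were higher in the library labelled arf10/arf16 with Al lay between 3.82% on chromosome 2 and 4.67% on chromosome 5. Over all kept loci 4.12% were higher and 1.77% lower. Of these, 37.9% of the higher and 18.4% of the lower loci were called the same way without Al, against 7.96% and 2.6% of all loci kept. Within 1 Mb of ARF10 on chromosome 2, 15 of 266 other kept loci were past the rule (13 higher and 2 lower, 5.64%), and 10 of them were called the same way without Al. Within 1 Mb of ARF16 on chromosome 4, 15 of 328 other kept loci were past it (11 higher and 4 lower, 4.57%), and 5 of them were called the same way without Al. AT4G29200, the locus farthest from 0, is one of these 5, at chr4:14398054-14400198, with ARF16 at chr4:14703065-14706354.

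Casparian strip genes, which seal the endodermis, lay above 0 in 7 of 8 cases with Al (median 0.82), and 1 was past the rule, or 0 with total counts. Without Al their median was -0.04. AT5G52390, of the PAR1 family, had 212 reads in the library labelled arf10/arf16 and 553 in wild type with Al, and 0 in both libraries without Al.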
